A study of Mus musculus with 12 samples.

Results

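The genes described here are 44 enzymes, transporters and sensors that handle foreign compounds, taken from a fixed list of symbols and matched to the gene names of a whole-genome mouse array. A probe was found for 43 of the 44 (60 probes in all), and 26 of those 43 had a signal high enough to compare mice, out of 15830 genes with such a signal. Ugt1a6a had no probe under its name. Arrays with a red and a green channel measured RNA of Leydig cells, the testosterone-producing cells between the seminiferous tubules, which were laser-captured from frozen sections with a single capture per mouse and RNA amplified for 2 rounds. The mice were C57BL/6J males aged 21 weeks; the labels speak of 4 per group, of which 2 and 3 are used here. The DEHP group (mice 1 and 4) had received di-(2-ethylhexyl) phthalate, a plasticiser, by gavage in corn oil at 200 mg per kg per day for 21 days, and the vehicle group (mice 1, 2 and 4) corn oil alone. Every pairing of a DEHP with a vehicle mouse was run as a dye swap, on 12 arrays in all, so that the number of replicates is 2 against 3 mice.

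Foreign compounds are handled in steps. Cytochrome P450 enzymes, carboxylesterases and epoxide hydrolases first oxidise or hydrolyse them; glucuronosyl-, sulfo- and glutathione transferases then attach a water-soluble group; ATP-binding cassette (ABC) transporters carry the products out of the cell. Ligand-activated factors, the aryl hydrocarbon receptor (Ahr) and the nuclear receptors Nr1i2 (PXR) and Nr1i3 (CAR), raise the transcription of many of these genes in liver. Leydig cells are known to be rich in glutathione transferases, and their microsomal P450 enzymes, the steroidogenic Cyp17a1 included, take electrons from Por.

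Values below are log2 levels of a gene in each mouse, relative to the average over all 5, estimated for each probe from the 12 arrays, and are given for DEHP mice 1 and 4 and then for vehicle mice 1, 2 and 4. Differences are DEHP minus vehicle on that log2 scale, with the standard error (SE) from limma's fit on the 5 mouse values. No member passed an adjusted p of 0.05 with limma's test, and none had an unadjusted p under 0.05; over the 15830 genes these counts were 0 (0%) and 136 (0.859%). The adjusted p was 1 for each of the 26. In 9 members the difference was above 0 and in 17 below, with a median of -0.09, beside a median of -0.01 over all genes, where 7653 were above and 8177 below. Of the 17, Cyp2b13 and Ahrr passed the filter through vehicle mice alone; without these, a count chosen after seeing the data, 9 of 24 were above and 15 below, and the median was again -0.09. The groups did not overlap in 3 members (11.5%), Nr1i3, Gstt2 and Tiparp, beside 1452 of all genes (9.17%). Both DEHP mice lay above all vehicle mice in 2 members, beside 3.95% of all genes, and below them in 1, beside 5.22%. The members' median rested on single animals: it was -0.52 when DEHP mouse 1 was left out, 0.29 when DEHP mouse 4 was, -0.32 when vehicle mouse 1 was, and -0.01 when vehicle mouse 2 or 4 was. It was 0.06, -0.06 and -0.36 on slides 1, 2 and 3 taken alone, where slide 3 alone holds vehicle mouse 4.

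**Figure D1:**
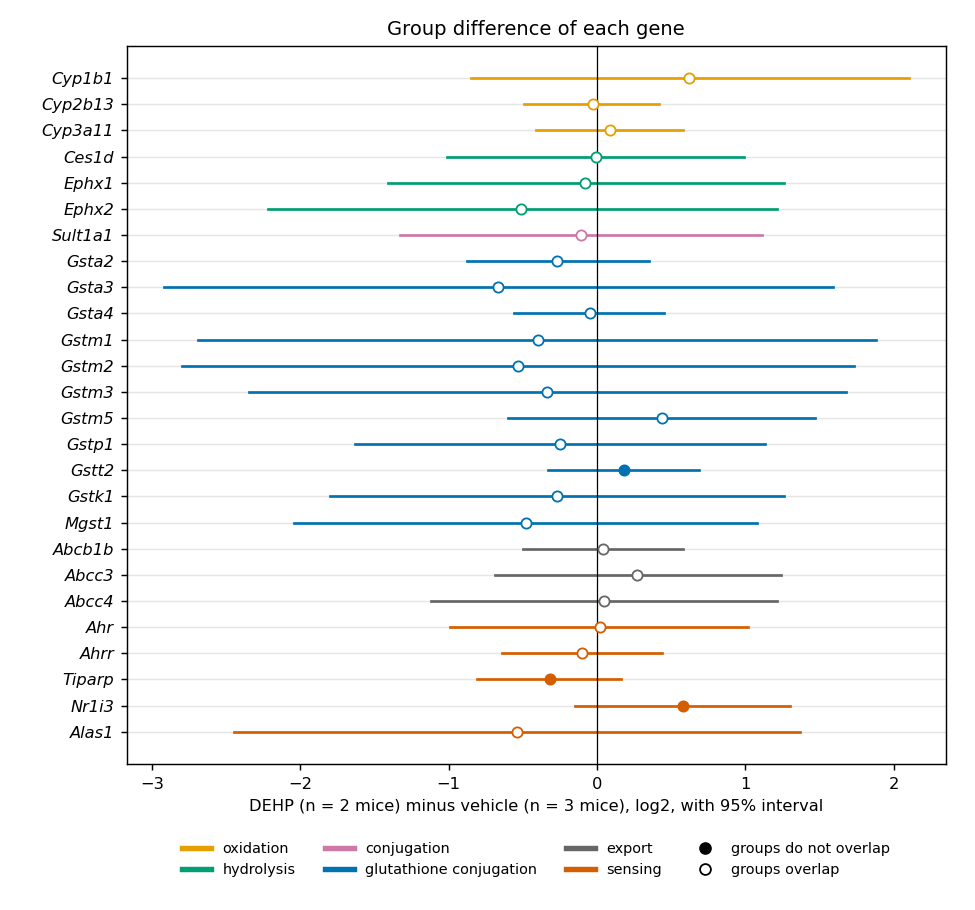
DEHP minus vehicle difference (x axis, log2; points) with its 95% interval (lines) for the 26 members with a value, from limma's fit on 2 DEHP and 3 vehicle mice, coloured by role; filled points mark members whose groups do not overlap. Each interval includes 0, and the widest belong to the glutathione transferases, such as Gsta3 with -2.92 to 1.59.

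Detection divided the pathway by step. Of the 13 P450 members, 3 passed the filter (a signal well above background in 2 or more mice, on 50% or more of each one's arrays), and of the 12 glutathione transferases, 11 did. Across the whole array, 15830 of 27670 gene names passed, beside 26 of the 43 members. Among the 17 members that did not pass, 8 were above background on no array in either group: Cyp1a1, Cyp1a2, Cyp2c29, Cyp2c55, Ces2a, Ugt1a1, Gstt1 and Abcb1a. The other 9 were above background on 1 to 5 of the 24 readings of their best probe: Cyp2a5 on 5, Cyp2a4 on 4, Cyp2b10 on 3, Cyp2b9, Cyp2e1 and Nr1i2 on 2 each, and Cyp3a13, Ugt2b5 and Abcc2 on 1 each. No fold is given for these, since their signal was not well above background in either group. At the other end, 20 of the 26 members with a value had a probe above background on all 24 readings. Cyp1a1, the gene classically induced through the aryl hydrocarbon receptor, was thus not well above background in either DEHP mouse (0 of 12 readings) or any vehicle mouse (0 of 12).

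**Figure D2:**
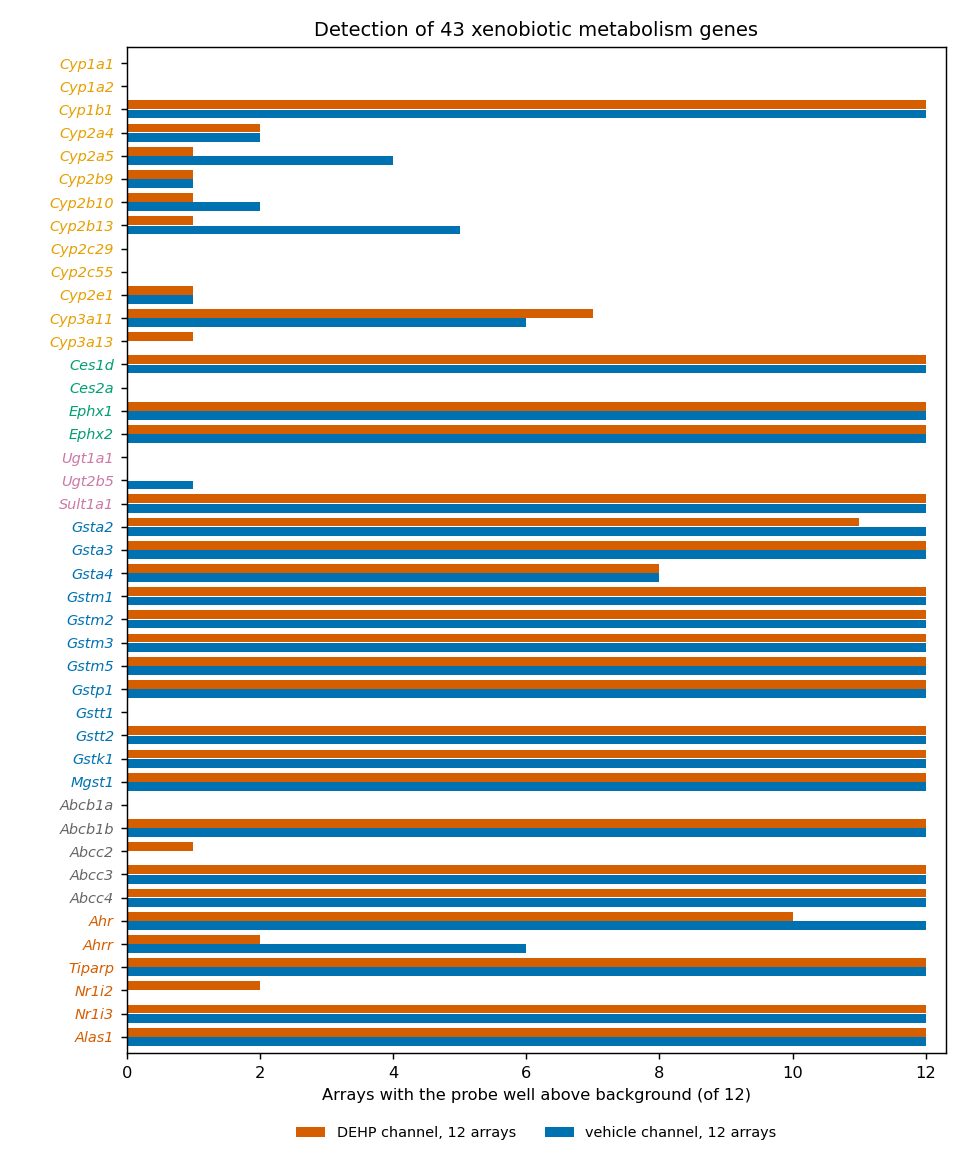
Number of arrays (x axis, of 12) on which the probe of each of the 43 members (rows) was well above background in the DEHP channel and in the vehicle channel; gene names are coloured by role as oxidation (yellow), hydrolysis (green), conjugation (pink), glutathione conjugation (blue), export (grey) and sensing (orange). Most P450 members have bars of 5 or fewer arrays, and most glutathione transferases reach 12 in both groups.

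Among the sensors, Nr1i3, the nuclear receptor CAR, had values of 0.43 and 0.27 in the DEHP mice and -0.23, 0.19 and -0.65 in the vehicle mice. Both DEHP mice lay above the 3 vehicle mice, and the gap from vehicle mouse 2 to DEHP mouse 4 was narrow beside the spread of the vehicle mice. The difference was 0.58 (SE 0.29, 95% interval -0.15 to 1.30, unadjusted p = 0.098 and adjusted p = 1 with limma). All 12 arrays gave a ratio above 0, from 0.07 to 1.24, but they compare the same 5 animals. The difference was 0.37 to 0.79 when each mouse was left out in turn. Its probe, shown because this gene had the lowest unadjusted p of the members, lies at chr1:171187738-171187797 (mm7) and reads as follows, as does that of Gstt2 at chr10:75488112-75488171 (mm7), the other member whose DEHP mice lay above.
Nr1i3 probe: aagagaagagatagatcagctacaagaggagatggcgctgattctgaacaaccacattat
Gstt2 probe: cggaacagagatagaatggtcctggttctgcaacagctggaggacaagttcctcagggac

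Tiparp, an ADP-ribosyltransferase whose gene is a target of the aryl hydrocarbon receptor, stood at -0.07 and -0.32 in the DEHP mice and at 0.05, 0.15 and 0.19 in the vehicle mice. Both DEHP mice were below every vehicle mouse, and all 12 arrays gave a ratio below 0, from -0.72 to -0.01. Its difference was -0.32 (SE 0.19, unadjusted p = 0.149, adjusted p = 1). Ahr itself had 0.59 and -0.58 in the DEHP mice and -0.30, -0.07 and 0.35 in the vehicle mice, a difference of 0.02 (SE 0.40) over widely overlapping groups. Ahrr, the repressor of that receptor, was above background on 2 of 12 DEHP readings and 6 of 12 vehicle readings, and passed the filter only through vehicle mice 2 and 4. Its difference of -0.10 (SE 0.22) is therefore against a signal mostly not well above background and gives no direction. Alas1, which makes the first intermediate of heme, the cofactor of every P450, had 0.60 and -1.24 in the DEHP mice and -0.98, 0.83 and 0.80 in the vehicle mice. DEHP mouse 4 and vehicle mouse 1 were low and the other 3 mice were high, so the difference of -0.54 (SE 0.77) was smaller than the gap between mice of 1 group. Its second probe gave the same order of high and low mice, with 0.25, -0.77, -0.50, 0.43 and 0.59.

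**Figure D3:**
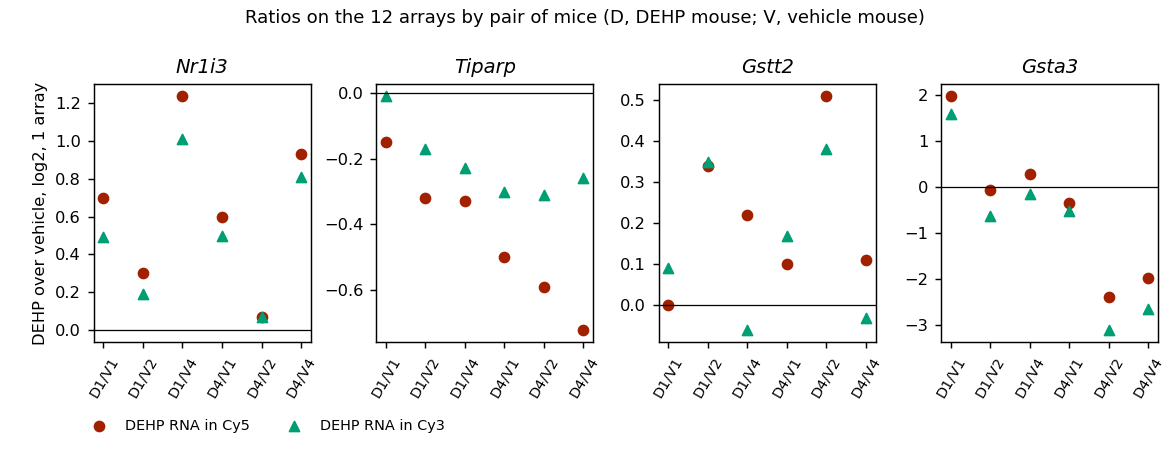
DEHP over vehicle log2 ratio (y axis, scaled to each panel) of Nr1i3, Tiparp, Gstt2 and Gsta3 on the 12 arrays, by pair of mice (x axis) and dye of the DEHP RNA (colour). Nr1i3 is above 0 and Tiparp below 0 on all arrays, Gstt2 is above 0 on 10, and Gsta3 runs from -3.10 to 1.97 with the pair of mice.

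The stretches before the start sites of both classic receptor targets are shown because Tiparp was above background in every mouse and Cyp1a1 in none. RefSeq's table (GRCm38.p6) held a promoter for 38 of the 44 members; the 250 bases before the start were searched on both strands. The core of the xenobiotic response element, GCGTG, occurred in 11 of these 38 (28.9%), beside 30.9% of 27025 genes and 28.2% of all 32851 promoters. In the lines below it is in capitals, 54 bases before the start of Cyp1a1 (chr9:57697363-57697612, + strand) and, on the other strand, 170 bases before that of Tiparp (chr3:65528197-65528446, + strand). A match is a run of letters and not a site shown to be bound.
Cyp1a1: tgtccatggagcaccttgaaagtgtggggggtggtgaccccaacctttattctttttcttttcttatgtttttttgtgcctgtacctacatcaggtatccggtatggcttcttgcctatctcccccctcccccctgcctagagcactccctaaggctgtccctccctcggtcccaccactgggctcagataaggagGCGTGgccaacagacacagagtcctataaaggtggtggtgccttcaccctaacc
Tiparp: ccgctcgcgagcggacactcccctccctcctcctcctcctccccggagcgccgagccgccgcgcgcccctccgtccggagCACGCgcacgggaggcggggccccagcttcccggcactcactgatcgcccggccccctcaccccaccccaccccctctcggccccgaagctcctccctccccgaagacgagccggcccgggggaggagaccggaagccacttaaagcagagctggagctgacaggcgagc

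Of the oxidising enzymes, Cyp1b1, a P450 that hydroxylates estradiol and polycyclic hydrocarbons, had the widest spread, and its probes disagreed. The brighter probe gave -0.28 and 1.02 in the DEHP mice and 0.45, -0.04 and -1.16 in the vehicle mice, a difference of 0.62 (SE 0.60). The dimmer probe gave 0.10 and -0.53 in the DEHP mice and -0.24, 0.23 and 0.44 in the vehicle mice, a difference of -0.35. The mice that were highest by the first probe were thus lowest by the second. The probes lie 5629 bases apart, at chr17:77997291-77997350 and chr17:78002920-78002979 (mm7), and the brighter was designed on a cDNA clone rather than the RefSeq transcript. Cyp3a11, a major hepatic drug-metabolising P450, was above background on 7 of 12 DEHP and 6 of 12 vehicle readings and differed by 0.09 (SE 0.20). Cyp2b13 was above background on 1 and 5 of 12 readings and passed the filter only through vehicle mice. Its difference of -0.03 (SE 0.18) likewise gives no direction. Among the members without a value, the Cyp2a4 probe with readings above background shared a run of 28 bases with a Cyp2a5 probe. The few readings of these probes may thus not belong to 1 gene alone, though binding across genes was not tested.

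The hydrolysis step had 3 enzymes with a value, and the groups overlapped in each. Ephx1, the microsomal epoxide hydrolase, had 0.58 and -0.68 in the DEHP mice and -0.75, 0.24 and 0.60 in the vehicle mice, a difference of -0.08 (SE 0.54). Its second probe gave 0.43, -0.49, -0.70, 0.15 and 0.61, so both probes put DEHP mouse 4 and vehicle mouse 1 low. Ephx2, the soluble epoxide hydrolase, which is also a known target of peroxisome proliferators in liver, had 0.53 and -1.14 against -0.85, 0.79 and 0.67, a difference of -0.51 (SE 0.69). Ces1d, a carboxylesterase that hydrolyses ester bonds, had 0.54 and -0.56 against -0.34, -0.06 and 0.42, a difference of -0.01 (SE 0.40). In the conjugation step, Sult1a1, the phenol sulfotransferase, had 0.47 and -0.60 against -0.47, -0.19 and 0.79, a difference of -0.11 (SE 0.49); DEHP mouse 1 and vehicle mouse 4 were its highest mice.

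The glutathione transferases were nearly all detected and held the 3 widest ranges between mice among the members. Of the 11 with a value, 2 had a difference above 0 and 9 below, with a median of -0.27 (-0.01 over all genes), and in 1, Gstt2 (9.09%, beside 9.17% of all genes), the groups did not overlap. Gsta3, an alpha-class transferase whose human counterpart also isomerises steroids, had 0.76 and -1.56 in the DEHP mice and -1.07, 1.14 and 0.72 in the vehicle mice, a difference of -0.67 (SE 0.91). Gstm1, of the mu class, had 0.74 and -1.23 against -1.40, 1.01 and 0.87, a difference of -0.40 (SE 0.92). Gstm2 had 1.03 and -1.67 against -0.90, 0.80 and 0.74, a difference of -0.53 (SE 0.91). In each of these the same pair of animals, DEHP mouse 4 and vehicle mouse 1, was low. Gstm3 had 0.72 and -1.12 against -1.19, 0.81 and 0.78, a difference of -0.34 (SE 0.81). Gstk1, the mitochondrial and peroxisomal kappa-class enzyme, had 0.72 and -1.04 against -0.65, 0.50 and 0.47, a difference of -0.27 (SE 0.62). Mgst1, the microsomal transferase, had 0.45 and -1.02 against -0.66, 0.20 and 1.03, a difference of -0.48 (SE 0.63). These 3 genes had the same low animals. Second probes put DEHP mouse 4 and vehicle mouse 1 lowest too, with 0.61, -1.20, -0.83, 0.82 and 0.60 for Gsta3 and 0.31, -0.51, -0.64, -0.03 and 0.87 for Mgst1, which gave differences of -0.49 and -0.17. Of the 7 members with more than 1 passing probe, Cyp1b1 was thus the exception in which the probes ordered the mice in opposite ways.

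Gstp1, of the pi class, had 0.29 and -0.60 in the DEHP mice and -0.80, 0.94 and 0.17 in the vehicle mice, a difference of -0.25 (SE 0.56). Its second probe gave 0.51 and -0.49 against -0.61, 0.27 and 0.32, a difference of 0.02. Both put the same mice low, but the sign of the group difference depended on the probe, as it did for Gstm1, whose second probe differed by 0.07. The Gstp1 probes are printed for that reason; the first lies at chr19:3930292-3930351 and the second, whose ends the file places 816 bases apart, at chr19:3930714-3931529 (mm7).
Gstp1 first probe: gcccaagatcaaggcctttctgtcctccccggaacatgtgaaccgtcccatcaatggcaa
Gstp1 second probe: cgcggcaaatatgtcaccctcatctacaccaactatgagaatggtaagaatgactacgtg

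Gstm5 ran the other way, with -0.05 and 0.58 in the DEHP mice and 0.52, -0.69 and -0.35 in the vehicle mice, and a difference of 0.44 (SE 0.42). This mu-class enzyme is best known from brain and testis. Gstt2, of the theta class, varied little: it had 0.08 and 0.14 against 0.02, -0.29 and 0.05, a difference of 0.18 (SE 0.21, unadjusted p = 0.409), and its groups were separated by less than the SE. Gsta4, which conjugates the lipid peroxidation product hydroxynonenal, was above background on 8 of 12 readings in each group and differed by -0.05 (SE 0.20). Gsta2 had 0.01 and -0.33 against -0.04, -0.06 and 0.42, a difference of -0.27 (SE 0.25). Its probe, at chr9:78408171-78408230 (mm7), shares the 20 bases in capitals with a probe of Gsta1, so these close paralogs may not be told apart.
Gsta2 probe: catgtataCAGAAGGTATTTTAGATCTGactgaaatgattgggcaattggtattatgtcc

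Of the ABC transporters, 3 had a value, each with a difference above 0 and overlapping groups. Abcc3, an exporter of glucuronides and bile salts, had -0.35 and 0.68 in the DEHP mice and 0.27, -0.48 and -0.12 in the vehicle mice, a difference of 0.27 (SE 0.39). Abcc4, which carries cyclic nucleotides and conjugated steroids, had 0.55 and -0.50 against -0.71, 0.47 and 0.18, a difference of 0.05 (SE 0.47). Abcb1b, a P-glycoprotein, had 0.14 and -0.09 against -0.24, 0.14 and 0.05, a difference of 0.04 (SE 0.22). Abcc3 was thus high in the mice in which Abcc4 was low.

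**Figure D4:**
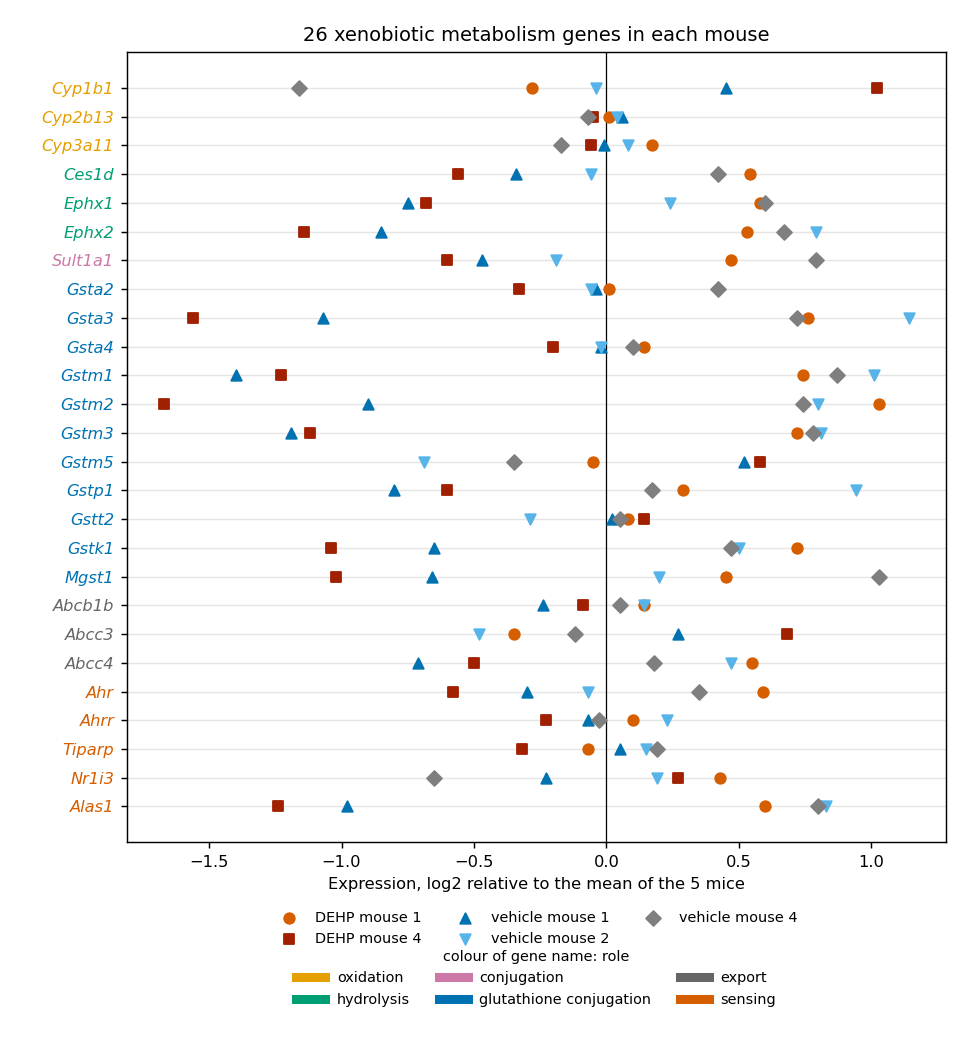
Log2 value relative to the mean of the 5 mice (x axis) of the 26 members with a value (rows, names coloured by role) in each mouse (symbols). DEHP mouse 4 and vehicle mouse 1 hold the lowest places in 16 members and the highest places in Cyp1b1 (brighter probe), Gstm5 and Abcc3. The 16 include Ahrr, which was above background in neither of these mice.

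Differences between the DEHP mice were wider than those between the groups, in the members as over all genes: the median size over the 26 members was 1.06 between the DEHP mice and 0.27 between the groups, beside 0.39 and 0.16 over all genes. The 2 measures are unlike, since a difference between single mice varies more than one between means of 2 and 3 mice. Part of the gap therefore comes from averaging. The range over the 5 mice exceeded the 90th percentile of all genes (1.54) in 10 of the 26 members (38.5%), namely Gstm2 (2.71), Gsta3, Gstm1, Cyp1b1, Alas1, Mgst1, Gstm3, Ephx2, Gstk1 and Gstp1 (1.74); the median range was 1.27 over the members and 0.725 over all genes. Between the extracts of DEHP mouse 4 and DEHP mouse 1, tested with limma on the 12 array ratios, 24 of 26 members passed an adjusted p of 0.05, beside 77.4% of all genes. Of these, 21 were lower in mouse 4 and 3 (Cyp1b1, Gstm5 and Abcc3) higher, while 41.1% of all genes were lower and 36.3% higher. Cyp1b1 is counted by its brighter probe, whereas its dimmer probe was lower in mouse 4 (-0.53) than in mouse 1 (0.10). The difference was -2.71 for Gstm2 (SE 0.09, adjusted p = 2.82e-10) and -2.32 for Gsta3 (SE 0.07, adjusted p = 1.5e-10), the largest sizes among the members. These tests compare extracts and not animals or treatments, because each mouse gave a single capture. With median centring in place of loess, which moved the median of all genes in this comparison from -0.05 to 0.30, 14 members were lower and 5 higher, against 2578 and 8655 of all genes.

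The same contrast ran within the vehicle group. Vehicle mouse 1 was lower than vehicle mouse 2 in 16 members and higher in 4, beside 38% and 33% of all genes. The 20 called were 76.9% of the members, beside 71% of all genes. Against vehicle mouse 4 it was lower in 16 and higher in 4, beside 35.3% and 33.5% of all genes. There 76.9% of the members were called, beside 68.8% of all genes. For Gstm1 the difference was -2.40 (SE 0.08) from mouse 2 and -2.27 (SE 0.08) from mouse 4. Vehicle mice 2 and 4 differed in 15 members (57.7%, beside 57.4% of all genes). In mouse 2, 6 were higher and 9 lower, beside 29.1% and 28.3% of all genes. With median centring, 2 were higher and 15 lower, against 1434 and 6118 of all genes. DEHP mouse 4 and vehicle mouse 1 held the lowest 2 places in 16 members (61.5%, beside 29.3% of all genes). They held the highest 2 places in 3 (11.5%, beside 26.4%), Cyp1b1 by its brighter probe among them. The 16 low members include Ahrr, which was above background in neither mouse of this pair. Ahrr passed the filter only through vehicle mice 2 and 4, so the filter itself favoured that order. The pair was singled out after seeing these values, so the shares describe the members and test nothing. Under the other scalings, the pair held the lowest places in 14 to 17 members.

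Markers of some cell types, but not of all, moved with these values. The 9 Leydig cell markers, among them Star, Cyp17a1 and Insl3, were all detected, and their median was 0.68 and -0.72 in the DEHP mice, against -0.42, 0.18 and 0.50 in the vehicle mice; the medians of the 26 members were 0.44 and -0.53 against -0.32, 0.17 and 0.27. The summed normalised signal of the Leydig list was 159000 and 52700 in the DEHP mice and 66700, 142000 and 162000 in the vehicle mice. The 7 macrophage markers had medians of 0.55 and -0.71 against -0.46, 0.08 and 0.47, with a summed signal of 27600 to 99900 in the DEHP mice and 40000 to 110000 in the vehicle mice. The 12 spermatid markers ran the other way, with 0.03 and 0.83 against 0.21, -0.64 and -0.45, a summed signal of 711000 to 847000 against 404000 to 566000, and a difference above 0 in 12 of 12. Endothelial markers (6 of 7 tested) had medians of 0.25 and -0.40 against -0.60, 0.44 and 0.16. DEHP mouse 4 and vehicle mouse 1 were lowest in 5 of these 6, as in 7 of 9 Leydig and 5 of 7 macrophage markers. The endothelial list had a median difference of -0.17 and a summed signal of 3380 to 5410 in the DEHP mice and 2360 to 10700 in the vehicle mice. Peritubular myoid markers (6 of 6) had a median difference of -0.48, with 10600 to 18400 against 11600 to 55600. Sertoli cell markers (9 of 9) had a median difference of -0.32, spermatocyte markers (8 of 9) of 0.09 and blood markers (2 of 3) of -0.25. DEHP mouse 4 and vehicle mouse 1 were lowest in only 3 of 6 myoid and 1 of 9 Sertoli cell markers. They were lowest in 0 of 8 spermatocyte and 1 of 2 blood markers. Sertoli cell medians were -0.18 and -0.20 in the DEHP mice, against 0.15, -0.07 and 0.18 in the vehicle mice. The part of these markers in the members' values was not tested. In such bulk captures, fewer cells of a type and less RNA per cell cannot be told apart.

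**Figure D5:**
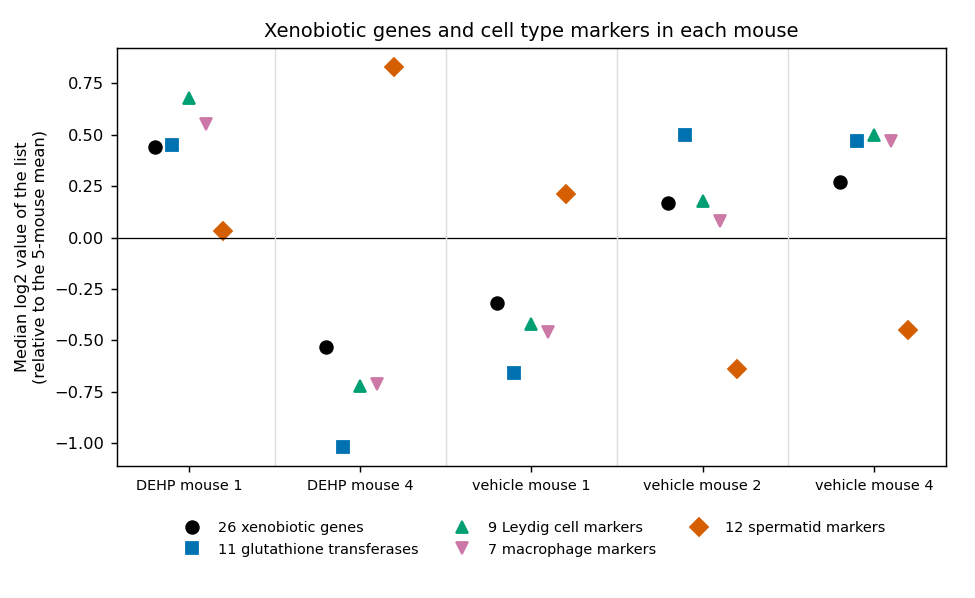
Median log2 value (y axis, relative to the mean of the 5 mice) in each mouse (x axis) over the 26 xenobiotic genes, the 11 glutathione transferases among them, and the Leydig cell, macrophage and spermatid markers. The xenobiotic, Leydig cell and macrophage medians are below 0 in DEHP mouse 4 and vehicle mouse 1 and above 0 in the other 3 mice, while the spermatid median is highest in DEHP mouse 4 (0.83).

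The antioxidant response element, bound by Nfe2l2 (NRF2), is known to drive several glutathione transferases. Its core, TGACNNNGC, searched on both strands of the same 250 bases, occurred in 5 of 38 members (13.2%, beside 11.5% of genes): Abcc2, Abcc4, Gsta3, Gstm5 and Mgst1. In Gstm5 it overlapped a GCGTG. Of the 13 members with a promoter entry whose lowest mice were DEHP mouse 4 and vehicle mouse 1, 3 held it, and of the 7 other members with a value, 1 did. That split of the members was made after seeing their values, and the 13 include Ahrr, which was above background in neither of those mice. The nuclear receptor half-site AGGTCA occurred in 8 of 38 members (21.1%, beside 15.8% of genes). The promoters of Gsta3 (chr1:21240335-21240584, + strand) and of the first Mgst1 start (chr6:138140277-138140526, + strand) are shown with the core in capitals, since both genes had DEHP mouse 4 and vehicle mouse 1 lowest; the core lies 121 and 56 bases before the start.
Gsta3: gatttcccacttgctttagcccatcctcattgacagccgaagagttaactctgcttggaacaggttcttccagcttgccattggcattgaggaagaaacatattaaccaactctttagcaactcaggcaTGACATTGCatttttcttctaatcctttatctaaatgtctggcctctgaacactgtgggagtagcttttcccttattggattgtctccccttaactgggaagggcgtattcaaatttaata
Mgst1: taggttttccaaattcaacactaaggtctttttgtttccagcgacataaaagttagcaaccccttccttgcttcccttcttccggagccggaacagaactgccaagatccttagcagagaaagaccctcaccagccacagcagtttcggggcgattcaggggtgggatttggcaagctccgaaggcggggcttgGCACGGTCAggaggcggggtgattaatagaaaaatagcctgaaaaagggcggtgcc

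Of 114 other genes of the pathway, 107 were on the array and 70 had a value; none passed the adjusted threshold, 4 had an unadjusted p under 0.05, beside 0.859% of all genes, and the groups did not overlap in 10 (14.3%), beside 9.17%. Their differences were above 0 in 25 and below in 45, with a median of -0.10. Keap1, the repressor of NRF2, had 0.08 and 0.93 in the DEHP mice and -0.30, -0.41 and -0.31 in the vehicle mice, a difference of 0.85 (SE 0.29, unadjusted p = 0.0293, adjusted p = 1 with limma). Nfe2l2 itself had 0.08 and -0.78 against -0.52, 0.58 and 0.64, a difference of -0.59 (SE 0.46). Its targets Nqo1, a quinone reductase, and Gclc, the first enzyme of glutathione synthesis, differed by -0.14 (SE 0.37) and 0.23 (SE 0.37). The groups thus overlapped in NRF2 and in both targets, while the DEHP mice lay above the vehicle mice in Keap1, whose difference ranged from 0.42 to 1.27 when each mouse was left out in turn.

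Cyp2f2, a P450 known from lung, had 0.33 and 0.29 in the DEHP mice and -0.19, -0.31 and -0.13 in the vehicle mice, a difference of 0.52 (SE 0.19, unadjusted p = 0.0331, adjusted p = 1). Nqo2, the second quinone reductase, differed by 0.53 (SE 0.22), also with both DEHP mice above. Nat2, an arylamine acetyltransferase, had -0.19 and -0.62 against 0.05, 0.21 and 0.55, a difference of -0.68 (SE 0.26, unadjusted p = 0.0399, adjusted p = 1), with both DEHP mice below. Maff, a small partner protein of NRF2, differed by -0.53 (SE 0.25), again without overlap, and Cyp2s1 by -0.50 (SE 0.33) with overlap. Por, the electron donor of microsomal P450s, had 0.67 and -0.84 against -0.83, 0.62 and 0.38, low in the same mice as 16 of the members, and differed by -0.15 (SE 0.61). Arnt, the partner of Ahr, differed by -0.35 (SE 0.39), and the exporters Abcc1 and Abcg2 by -0.34 (SE 0.27) and -0.05 (SE 0.22).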

How the data were processed

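RNA of 5 mice (2 DEHP, 3 vehicle) was measured on 12 arrays lying on 3 slides of 4. The deposited scanner files were written by Feature Extraction 9.5.1.1 and hold, for each spot and channel, the intensity as a mean signal, the median of the local background and a processed intensity. The deposited log10 ratio (red over green) served only as a check of direction. The deposited flags per spot (values of 0 or 1 for well above background, saturated and outlying) are the software's. The authors' deposited value table holds log2 ratios of 13669 spots; set against the scanner values it ran as DEHP over vehicle (r = 0.915 to 0.993, slopes of 0.842 to 0.932; column medians -0.06 to 0.00), and its filter, centring and normalization are not given in the sources used here. Limma is named, without a version, in the submitters' processing notes.

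All further steps used limma 3.58.1 in R 4.3.3. Signals were background-corrected by normexp (offset 50), arrays were normalized by loess with control spots at weight 0, outlying spots were dropped and spots of a probe averaged. Least squares on the 12 ratios gave a value per mouse and a dye effect. A gene was represented by its passing probe of highest mean intensity; a probe passed if 2 or more mice had it well above background on 50% or more of their arrays. The groups were compared by lmFit and eBayes, with the 5 mice as samples, adjusted by Benjamini-Hochberg over 15830 genes (threshold 0.05); extracts of single mice were compared on the array ratios. The labels speak of independent mice; repeated arrays of 1 mouse sharpen its value without adding animals. The number of arrays limits how precise a value can be, and the number of mice limits the group comparison.

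Every member with a value was named, and of the other pathway genes Por, Arnt, Abcc1, Abcg2, Nqo1, Gclc, Nfe2l2 and Keap1 and those with the 3 highest and 3 lowest moderated statistics among genes detected in all 5 mice. Probe positions are those of the files (mm7); promoters are RefSeq's (GRCm38.p6). The members and lists were chosen with earlier results of these data known. The functions were tested on simulated arrays. Alternatives covered background, centring, the filter, probes per gene, dye, slide, block, the authors' value table and the omission of each mouse.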

Additional observations from a re-analysis of the deposited data

How the results depend on the processing

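No member passed the adjusted threshold under any alternative (lowest adjusted p 0.688). On slides 1, 2 and 3 alone, where no dye effect was fitted, 9, 15 and 19 members were below 0, beside 17 in all. In fits on all 5 mice and all slides, 22 of the 26 members kept their direction. The exceptions were Ahr (-0.04 with offset 0, -0.06 with processed signals, -0.02 with the block, -0.07 in the authors' deposited table), Gstm1 (0.07 in that table, 0.02 with the block), Ephx1 (0.03 with the block) and Gstp1 (0.17 with the block). Of the other genes, Abcg2 (0.01 with processed signals, 0.05 with the block) and Por (0.13 with the block) turned. With processed signals some sizes grew: Ahrr to -0.70, Cyp3a11 to 0.66, Cyp2b13 to -0.54, Nr1i3 to 0.99 and Maff to -0.89. With median centring several glutathione transferases shrank, Gstm1 to -0.18, Gstm3 to -0.18, Gstp1 to -0.12 and Gstm2 to -0.35. Under that setting Gstm5 grew to 0.54 and Gsta2 to -0.30. With the mean of passing probes Cyp1b1 fell to 0.14. The cause was not tested. With each mouse left out in turn, 6 of 26 kept their direction in all fits; the lowest and highest differences of genes that turned were Cyp1b1 -0.03 to 1.27, Cyp3a11 -0.03 to 0.20, Ces1d -0.56 to 0.54, Ephx1 -0.71 to 0.55, Ephx2 -1.34 to 0.33, Sult1a1 -0.64 to 0.43, Gsta3 -1.82 to 0.49, Gsta4 -0.22 to 0.11, Gstm1 -1.39 to 0.58, Gstm2 -1.89 to 0.82, Gstm3 -1.26 to 0.58, Gstp1 -0.70 to 0.19, Gstk1 -1.15 to 0.61, Mgst1 -1.21 to 0.26, Abcb1b -0.07 to 0.15, Abcc3 -0.24 to 0.79, Abcc4 -0.48 to 0.57, Ahr -0.57 to 0.60, Ahrr -0.27 to 0.06, Alas1 -1.46 to 0.38, Por -0.90 to 0.61, Abcg2 -0.16 to 0.05, Nqo1 -0.58 to 0.31, Gclc -0.09 to 0.56. Others kept their sign but moved by over 1.5 times: Gstm5 0.12 to 0.78, Gsta2 -0.44 to -0.09, Gstt2 0.08 to 0.24, Nr1i3 0.37 to 0.79, Tiparp -0.45 to -0.20, Cyp2s1 -0.99 to -0.02, Nfe2l2 -1.02 to -0.16, Abcc1 -0.61 to -0.06, Arnt -0.59 to 0.00, Nqo2 0.30 to 0.76 and Maff -0.71 to -0.35. Cyp2b13, 1 of the 6 members counted as keeping their direction, ran from -0.07 to 0.00 at a signal mostly not well above background. A fit that leaves 1 DEHP mouse assumes that it varies like the vehicle mice. The number of genes with an unadjusted p under 0.05 was 136, and moved to 240 with processed signals, 70 with median centring, 436 with no filter, 80 with a stricter one, 64 in the authors' deposited table, 14 with the replicate block, and 53 to 1053 without a mouse. The replicate numbers 1 and 4 occur in both groups, but deviations of same-numbered mice correlated at -0.73 and -0.56 across genes, and the mice share only a number; the block changed no call. Groups did not overlap in 3 members (11.5%, beside 9.17% of all genes). The count was 5 with median centring, and 8, 3 or 4 without vehicle mouse 1, 2 or 4, where fewer mice can overlap. The share over all genes was not counted under these alternatives, so their counts show nothing particular to the members. No count is given for fits with 1 DEHP mouse, which lies outside the vehicle mice more easily than 2 do. A dye effect for each slide could not be fitted, because slides 1 and 2 each hold 1 orientation of the same pairs. A fit with 1 dye effect for slides 1 and 2 and another for slide 3, chosen after seeing the data, left the members' median at -0.09. Dim probes (Cyp2b13, Cyp3a11, Ahrr, Gsta4) limit what small differences could show.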
